A study of Mus musculus with 6 samples.

Results

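Fc receptors and pan-leukocyte membrane genes were followed in the hearts of Ang II mice with and without tectochrysin (Tec). The 10 genes were taken by symbol from the deposited table of FPKM (fragments per kilobase of transcript, scaled to the mapped fragments of each library), where each symbol had 1 row among 30914 genes. They comprise the IgG receptors Fcgr1, Fcgr2b and Fcgr3, the signalling adaptors Fcer1g and Tyrobp, the Tyrobp-coupled receptor Trem2, and the leukocyte membrane genes Laptm5, Ptprc, Cd53 and Cd52. All mice were wild-type male C57BL/6J, 8 weeks old, and carried osmotic pumps that delivered Ang II, 1 μg/kg/min, over 4 weeks. The Ang II group (n = 3) had this infusion alone, whereas the Ang II + Tec group (n = 3) was also given Tec, a flavonoid, at 5 mg/kg in the final 2 weeks. Hearts without Ang II were not analysed here, so the values contrast infused hearts with and without Tec and do not show the effect of Ang II. Below, the 3 values of a group are given in the order of its replicates 1, 2 and 3, and paired means or ranges stand in the order Ang II, Ang II + Tec.

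Fc receptors bind the constant part of antibodies and couple antibody recognition to phagocytosis and cytokine release. The activating receptors signal through small adaptors with an immunoreceptor tyrosine-based activation motif (ITAM), which recruits the kinase SYK once SRC-family kinases have phosphorylated it, while FcγRIIB carries an inhibitory motif (ITIM) that recruits phosphatases. In the heart these receptors and adaptors are known mainly from macrophages and other myeloid cells, whereas CD45, CD53, CD52 and LAPTM5 are found across leukocytes. In bulk heart tissue, fewer cells of a type and less RNA per cell cannot be told apart.

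The lowest FPKM values gave the depth of the libraries relative to each other, which ranged from 0.954 in Ang II + Tec replicate 1 to 1.28 in Ang II + Tec replicate 2. Depth in fragments was not given and no counting error was computed, so the error given is the spread between mice. Mitochondrial transcripts held 40.1% to 48.9% of the summed FPKM in the Ang II group and 49.6% to 52.5% in the Ang II + Tec group. Over the 13089 tested genes the log2 fold change (Ang II + Tec against Ang II, on FPKM + 1) had a median of -0.17, and of 0.0020 after median-of-ratios scaling, which divides a library by its typical ratio to the geometric mean of all libraries. Cardiomyocyte markers fitted the labelled tissue, with myoglobin (Mb) at 5499 ± 911 FPKM without Tec and 5633 ± 378 FPKM with Tec (SD, n = 3 each).

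Every one of the 10 genes had a lower mean FPKM with Tec, the Ang II mean being 1.59 (Ptprc) to 4.08 (Cd52) times the Ang II + Tec mean. Of all tested genes, 80% had a lower mean with Tec on the log scale. None of the 9 tested members passed the test across all genes (limma, Benjamini-Hochberg adjusted p-value under 0.05), by which 0.183% of all tested genes were called, or 0.16% with an at least 2-fold difference as well. The adjusted p-values of the 9 tested genes lay between 0.185 and 0.282. At an unadjusted limma p-value under 0.05, 8 of the 9 were lower with Tec, against 16.5% of all tested genes (2.09% were higher), and Trem2 was the exception. The 3 Ang II libraries lay above the 3 Ang II + Tec libraries in 7 of the 10 genes and in 18.9% of all tested genes (2.9% lay the other way round). A log2 fold change of -1 or lower was found for Cd52, Tyrobp and Laptm5 and for 1.47% of all tested genes. The median log2 fold change of the 10 genes was -0.77. After median-of-ratios scaling it was -0.56, 5 of 9 genes were at an unadjusted p-value under 0.05 (8.2% of all tested genes), and 5 of the 9 did not overlap (10.8%). Quantile normalization also left 5 of 9 at an unadjusted p-value under 0.05 (7.85% of all tested genes).

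**Figure D1:**
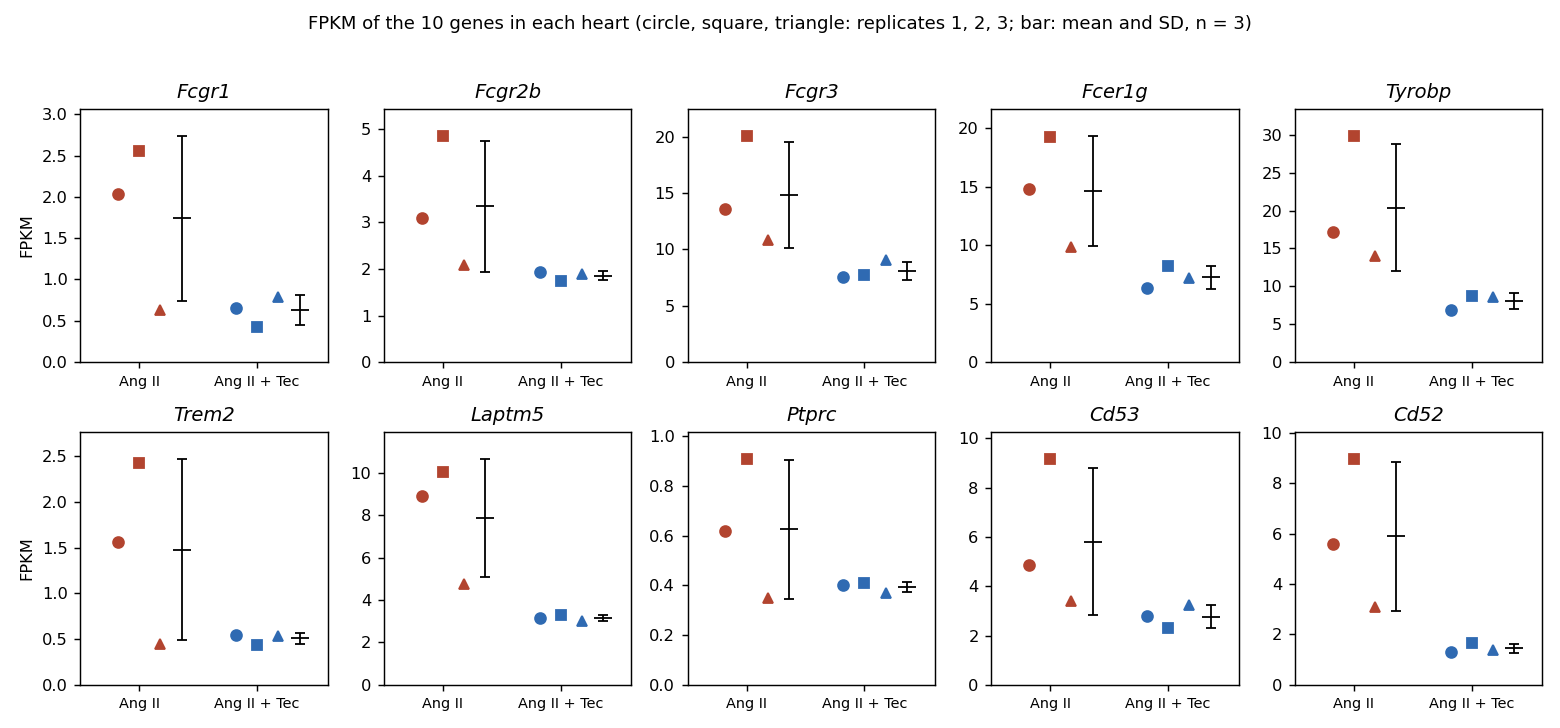
FPKM of each gene (vertical axis, linear, from 0) in the 3 Ang II and 3 Ang II + Tec hearts, with symbols for replicates and bars for the mean and SD. In all 10 genes Ang II replicate 2 was the highest and replicate 3 the lowest of the Ang II hearts, and in Fcgr1, Trem2 and Ptprc replicate 3 lay among or below the Ang II + Tec hearts.

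Among the IgG receptors, Fcgr3 (ENSMUSG00000059498, chromosome 1 from 171051174 to 171064935), which encodes the low-affinity activating receptor, was the most abundant. Its FPKM was 13.6, 20.06 and 10.85 without Tec and 7.58, 7.71 and 9.01 with Tec. The groups did not overlap, and the means were 14.8 ± 4.73 (SD, n = 3) and 8.1 ± 0.791 FPKM (SD, n = 3). The log2 fold change was -0.76 (standard error, SE, 0.21, adjusted p-value 0.209 by limma), the 3.29th percentile of the log2 fold changes of all tested genes.

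Fcgr2b (ENSMUSG00000026656, chromosome 1 from 170958617 to 170976547) encodes the inhibitory receptor. It stood at 3.1, 4.86 and 2.08 FPKM without Tec and at 1.93, 1.75 and 1.9 FPKM with Tec. The lowest Ang II heart was just above the highest treated heart, and the groups overlapped after median-of-ratios scaling. Its log2 fold change was -0.55 (SE 0.22, adjusted p-value 0.256 by limma).

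Fcgr1 (ENSMUSG00000015947, chromosome 3 from 96282909 to 96293969) encodes the high-affinity receptor for IgG. Without Tec it was at 2.03, 2.56 and 0.63 FPKM and with Tec at 0.66, 0.43 and 0.79 FPKM. Ang II replicates 1 and 2 were far above the treated hearts, whereas replicate 3 lay inside their range. The log2 fold change of -0.68 had an SE of 0.28 (adjusted p-value 0.259 by limma). Of the stretches of 50 bases in the annotated transcripts of Fcgr3, 9.58% also occur in Fcgr2b, and fragments from these paralogues could have been divided between them. For Fcgr1 this share was 0%.

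The adaptor Tyrobp (ENSMUSG00000030579, chromosome 7 from 30413760 to 30417582) encodes DAP12, which carries the ITAM for TREM2 and several other myeloid and natural killer cell receptors. It had 17.24, 29.86 and 14.07 FPKM without Tec and 6.81, 8.66 and 8.57 FPKM with Tec. The lowest Ang II heart lay well above the highest treated heart, and the means were 20.4 ± 8.35 (SD, n = 3) and 8.01 ± 1.04 FPKM (SD, n = 3). The log2 fold change of Tyrobp was -1.18 (SE 0.26, adjusted p-value 0.185 by limma), at the 0.924th percentile of all tested genes.

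Fcer1g (ENSMUSG00000058715, chromosome 1 from 171229572 to 171234365) encodes the common γ chain, the ITAM adaptor that FcγRI and FcγRIII need at the cell surface. Its FPKM was 14.83, 19.26 and 9.85 without Tec against 6.32, 8.26 and 7.19 with Tec. There was no overlap, and the log2 fold change was -0.88 (SE 0.23, adjusted p-value 0.201 by limma).

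Trem2 (ENSMUSG00000023992, chromosome 17 from 48346401 to 48354147), the lipid-binding receptor of macrophages and microglia that signals through DAP12, had a much lower FPKM than its adaptor. It was at 1.56, 2.43 and 0.45 FPKM without Tec and at 0.55, 0.44 and 0.53 FPKM with Tec. Ang II replicate 3 could not be separated from the treated hearts, and the difference of -0.63 (log2 fold change, standard error 0.29, adjusted p-value 0.282 by limma) did not exceed the spread between mice.

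Of the pan-leukocyte genes, Cd52 (ENSMUSG00000000682, chromosome 4 from 134082448 to 134095082), a short glycoprotein anchored to the surface of lymphocytes and myeloid cells, had the largest difference of the 10 genes. The hearts without Tec had 5.6, 8.98 and 3.1 FPKM and those with Tec 1.29, 1.65 and 1.39 FPKM. Without overlap, its log2 fold change was -1.41 (SE 0.30, adjusted p-value 0.185 by limma), the 0.604th percentile of all tested genes. The gene overlaps Crybg2 on the opposite strand, with which it shares 8.89% of its transcript stretches of 50 bases, but Crybg2 was listed at no more than 0.01 FPKM in any library.

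Laptm5 (ENSMUSG00000028581, chromosome 4 from 130913125 to 130936141) encodes a lysosomal membrane protein of haematopoietic cells. Values of 8.89, 10.02 and 4.74 FPKM without Tec stood against 3.14, 3.31 and 3.02 FPKM with Tec. The treated hearts lay close together, with an SD of 4.62% of their mean against 35.3% in the Ang II group. The log2 fold change was -1.04 (SE 0.24, adjusted p-value 0.188 by limma).

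Cd53 (ENSMUSG00000040747, chromosome 3 from 106759921 to 106790149), a tetraspanin of leukocytes, was at 4.88, 9.17 and 3.39 FPKM without Tec and at 2.79, 2.29 and 3.22 FPKM with Tec. The lowest value without Tec was just above the highest with Tec, and the groups overlapped after median-of-ratios scaling. The log2 fold change was -0.77 (SE 0.29, adjusted p-value 0.243 by limma).

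Ptprc (ENSMUSG00000026395, chromosome 1 from 138062861 to 138175306) encodes CD45, the tyrosine phosphatase that defines leukocytes. It was the lowest of the 10 genes, at 0.62, 0.91 and 0.35 FPKM without Tec and 0.4, 0.41 and 0.37 FPKM with Tec. Ang II replicate 3 was below all treated hearts. Only 2 libraries reached the 0.5 FPKM that was required in 3, so the gene was not tested, and in a fit without that filter the log2 fold change was -0.21 (SE 0.14, adjusted p-value 0.562 by limma).

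**Figure D2:**
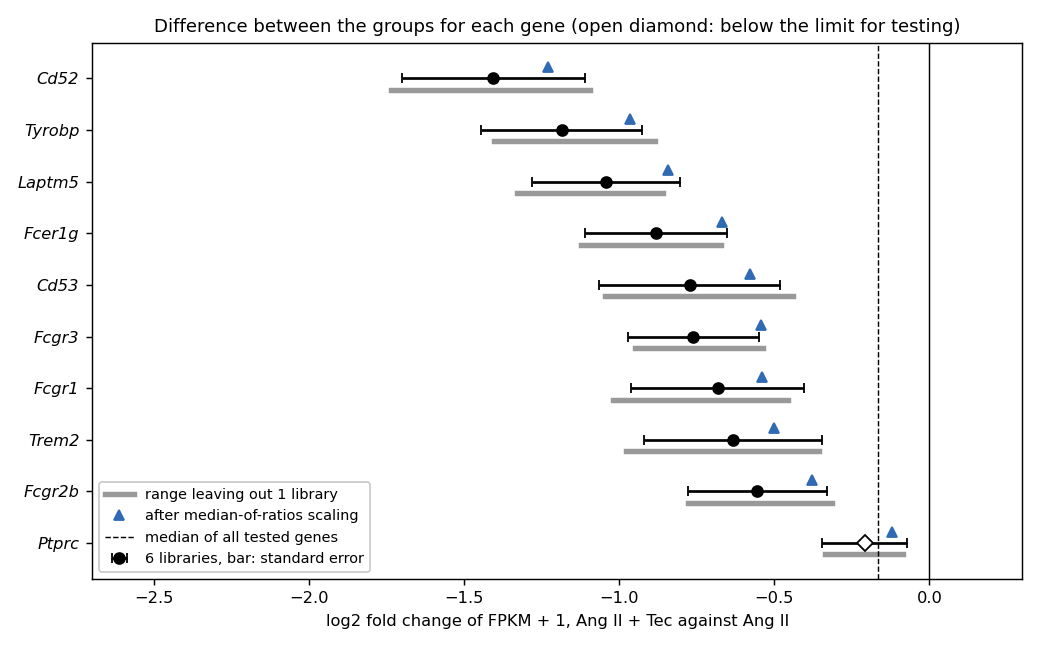
Log2 fold change of FPKM + 1 for each gene (horizontal axis) with its standard error, the range when 1 library was left out, and the value after median-of-ratios scaling. All 10 genes lay below 0 under each of these settings, from -1.41 (Cd52) to -0.21 (Ptprc) with all 6 libraries, while the median of all tested genes was -0.17.

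In the Ang II group the order of FPKM, which is relative to transcript length, was Tyrobp, Fcgr3, Fcer1g, Laptm5, Cd52, Cd53, Fcgr2b, Fcgr1, Trem2 and Ptprc. The order of Fcgr3 and Fcer1g, at 14.8 ± 4.73 and 14.6 ± 4.71 FPKM (SD, n = 3), differed between these hearts. The same held for Cd52 and Cd53, at 5.89 ± 2.95 and 5.81 ± 3.001 FPKM (SD, n = 3). Fcgr1, at 1.74 ± 0.997 FPKM, was above Trem2, at 1.48 ± 0.992 FPKM (SD, n = 3 each), in every Ang II heart. With Tec, Fcgr3 came first at 8.1 ± 0.791 FPKM (SD, n = 3). Tyrobp followed at 8.01 ± 1.04 FPKM (SD, n = 3), and their order differed between the treated hearts. There Cd52, at 1.44 ± 0.186 FPKM (SD, n = 3), stood behind both Cd53, at 2.77 ± 0.465 (SD, n = 3), and Fcgr2b, at 1.86 ± 0.0964 FPKM (SD, n = 3). The SD was larger in the Ang II group for all 10 genes, at 31.9% to 67.1% of the mean against 4.62% to 29.1% in the treated hearts.

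The 10 genes shared 1 pattern within the Ang II group, with replicate 2 above replicate 1 and replicate 1 above replicate 3 in each. The level of Ang II replicate 3 relative to the treated hearts differed between the genes. It was 2.15 times the Ang II + Tec mean for Cd52, 1.76 times for Tyrobp and 1.5 times for Laptm5. For Fcgr1, Ptprc and Trem2 it was 1.01, 0.89 and 0.888 times that mean.

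The result of the test depended on Ang II replicate 3. Without Ang II replicate 3 all 9 tested genes had a limma adjusted p-value under 0.05, from 0.00128 (Laptm5) to 0.0183 (Cd53), as did 26.2% of all tested genes with a lower value. The median log2 fold change of the 10 genes was then -1.03. With limma's array weights, which weigh each library by its fit and whose estimation stopped before it converged, the adjusted p-values of the 9 genes were 0.0259 to 0.0359, and 25% of all tested genes were called lower. Leaving out any 1 of the other 5 libraries gave adjusted p-values of 0.272 or higher for all 9 genes. At an unadjusted p-value under 0.05, 5 of the 9 genes were lower without Ang II replicate 1 (6.29% of all tested genes) and 5 without Ang II replicate 2 (7.64%), each time Fcgr3, Fcer1g, Tyrobp, Laptm5 and Cd52.

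Ratios of 2 genes within a heart do not depend on the scaling of the library, and 9 of them were computed after the values had been seen. The ratio of the activating Fcgr3 to the inhibitory Fcgr2b was 4.58 ± 0.569 without Tec and 4.36 ± 0.409 with Tec (SD, n = 3 each, exact permutation test, two-sided, p = 0.7). Fcgr1/Fcgr2b was 0.49 ± 0.18 and 0.33 ± 0.085 (SD, n = 3; exact permutation p = 0.3). Fcgr3 and Fcgr2b share part of their sequence, and no ratio was computed for the activating receptor Fcgr4. The γ chain stood to Fcgr3 at 0.986 ± 0.0940 and 0.901 ± 0.149 (SD, n = 3; exact permutation p = 0.4), and Trem2 to Tyrobp at 0.0679 ± 0.0315 and 0.0645 ± 0.0152 (SD, n = 3; exact permutation p = 1). These differences were within the spread between mice.

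In 3 of the 9 ratios the groups did not overlap. For these the exact permutation p-value was 0.1, the smallest that 3 against 3 mice can give (0.3 adjusted over the 9 ratios). The ratios share genes, and the share without overlap among other gene pairs was not computed. Laptm5/Ptprc was 14.3, 11.01 and 13.5 without Tec and 7.85, 8.07 and 8.16 with Tec. Its denominator Ptprc was below the limit for testing, at 0.35 to 0.91 FPKM, and its counting error was not computed. Cd53/Ptprc, with the same denominator, overlapped between the groups (exact permutation p = 0.2). Cd52/Cd53 was 1.15, 0.979 and 0.914 against 0.462, 0.721 and 0.432. Tyrobp/Fcgr2b was 5.56, 6.14 and 6.76 against 3.53, 4.95 and 4.51.

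**Figure D3:**
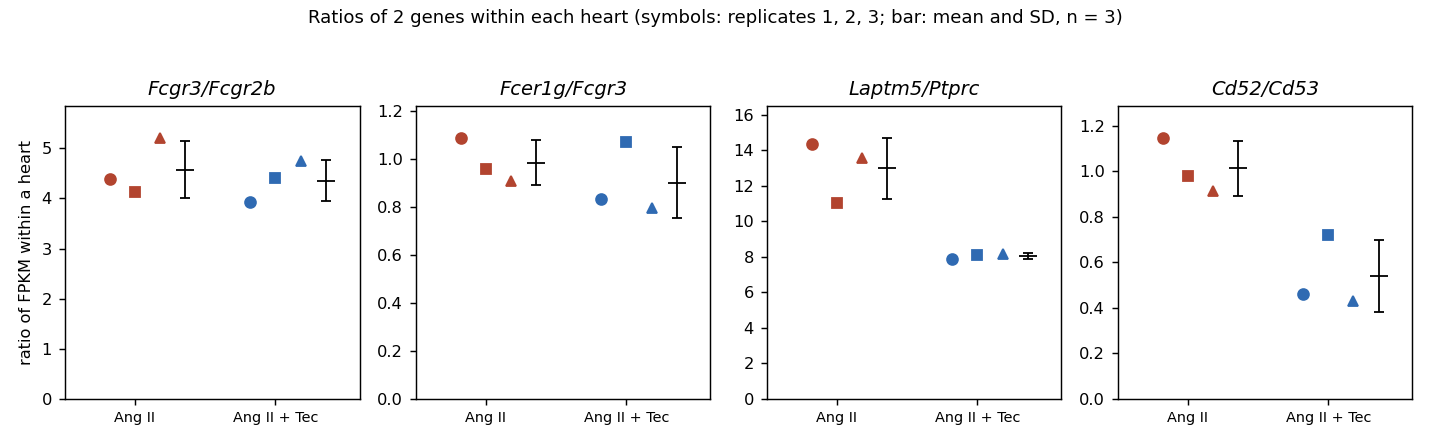
Ratio of the FPKM of 2 genes within each heart (vertical axis, linear, from 0) for 4 of the 9 ratios, with symbols for replicates and bars for the mean and SD. Fcgr3/Fcgr2b and Fcer1g/Fcgr3 overlapped between the groups. Laptm5/Ptprc was 11.01 or higher in the Ang II hearts and 8.16 or lower in the treated hearts, with Ptprc below the limit for testing. Cd52/Cd53 was 0.914 or higher against 0.721 or lower.

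Fcgr2b, Fcgr3 and Fcer1g lie within 275.7 kb of chromosome 1, and the table lists 13 genes there, of which 2 were at 0 in all 6 libraries. Fcgr4, which encodes another activating IgG receptor and lies between Fcgr2b and Fcgr3, was at 1.62, 1.93 and 0.74 FPKM without Tec and at 0.1, 0.38 and 0.37 FPKM with Tec. Its Ang II mean was 5.05 times the treated mean, with a log2 fold change of -0.89 (SE 0.21, adjusted p-value 0.188 by limma). All its treated values were under the 0.5 FPKM required for testing, so it was tested only through its Ang II values. The ratio thus has a denominator under that limit. Among the other neighbours, Sdhc, a subunit of respiratory complex II, had a log2 fold change of -0.018 (SE 0.15), and Pcp4l1 one of -0.17 (SE 0.15). Tomm40l, a homologue of a mitochondrial import channel, was at 18.8 ± 1.81 and 13.4 ± 0.786 FPKM (SD, n = 3), without overlap and with a log2 fold change of -0.46 (SE 0.12, adjusted p-value 0.201 by limma).

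Promoter windows from RefSeq (GRCm38.p6) were present for 8 of the 10 genes, Tyrobp and Cd52 being without one. The letters GAGGAA, the core of sites bound by the myeloid ETS factor PU.1, were searched on both strands in the 250 bases before the start, after the sequences had been seen. They occurred in 6 of these 8 genes and in 25.9% of all 27025 genes with a window. The longer form GAGGAAGT, which contains the shorter one, occurred in 0 of the 8 and in 2.79% of all genes. The 100 bases before the start are shown for the 5 genes in which the letters lie in this stretch, on the coding strand of each gene, with the start taken from RefSeq and GAGGAA or its reverse complement TTCCTC in capitals. Laptm5 (chr4:130913216-130913315) and Trem2 (chr17:48346301-48346400) are on the plus strand, and Fcgr1 (chr3:96293970-96294069), Fcgr3 (the first of its windows, chr1:171059404-171059503) and Cd53 (chr3:106790150-106790249) on the minus strand. The RefSeq starts used for Laptm5 and Fcgr3 lie downstream of the deposited gene starts, so these stretches are inside the deposited spans of both genes.
Laptm5: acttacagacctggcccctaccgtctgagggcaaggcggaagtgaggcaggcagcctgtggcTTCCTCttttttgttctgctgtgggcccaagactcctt
Trem2: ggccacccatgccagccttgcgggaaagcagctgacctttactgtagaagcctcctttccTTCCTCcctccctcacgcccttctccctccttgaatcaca
Fcgr1: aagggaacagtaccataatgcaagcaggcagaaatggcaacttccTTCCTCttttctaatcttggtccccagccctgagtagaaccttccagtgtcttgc
Fcgr3: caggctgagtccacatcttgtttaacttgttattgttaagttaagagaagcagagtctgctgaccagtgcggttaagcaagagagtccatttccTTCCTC
Cd53: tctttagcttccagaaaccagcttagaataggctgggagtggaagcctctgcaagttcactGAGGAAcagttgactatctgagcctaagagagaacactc
In the first 4 the capitals are TTCCTC and in Cd53 they are GAGGAA. Spi1, which encodes PU.1, was at 2.28, 3.03 and 1.67 FPKM without Tec and 1.24, 1.35 and 0.97 FPKM with Tec, with no overlap and a log2 fold change of -0.59 (SE 0.17, adjusted p-value 0.218 by limma).

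Related genes were read from 6 lists with 89 different genes in the table, of which 50 were tested. Of these, 49 had a lower mean on the log scale with Tec (80% of all tested genes), 24 were lower at an unadjusted limma p-value under 0.05 (16.5% of all tested genes), and 0 had an adjusted p-value under 0.05. The lowest adjusted p-value was 0.188, for Fcgr4, which was tested only through its Ang II values. After median-of-ratios scaling 20 of the 50 were lower at an unadjusted p-value under 0.05, against 8.2% of all tested genes. Among the genes that act behind the ITAM, 4 of 10 tested were lower at an unadjusted p-value under 0.05 and the median log2 fold change was -0.38, or 3 and -0.27 after median-of-ratios scaling. Lyn, the SRC-family kinase that phosphorylates ITAM and ITIM, had 5.7 ± 0.881 and 4.02 ± 0.161 FPKM (SD, n = 3) without overlap (log2 fold change -0.41, standard error 0.13). Syk, the kinase that docks there, had 3.27 ± 0.552 and 2.5 ± 0.446 FPKM (SD, n = 3) with overlap (log2 fold change -0.29, standard error 0.15).

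Of the receptors that pair with Fcer1g or Tyrobp, 4 of 16 in the table were tested. Their median was -0.59, with 2 at an unadjusted p-value under 0.05 (-0.48 and 2 after the scaling). All tested genes had a median of -0.17, with 16.5% lower at this limit (0.0020 and 8.2% after the scaling). Clec4n, the C-type lectin Dectin-2, was at 2.45, 4.13 and 1.39 FPKM without Tec and at 0.63, 0.83 and 0.84 FPKM with Tec (log2 fold change -0.98, standard error 0.26). Lilra5, an activating leukocyte receptor, had a log2 fold change of -0.23 (SE 0.10). The inhibitory receptors and phosphatases had a median of -0.43 over 10 tested genes (-0.27 after the scaling). Of them, 6 were at an unadjusted p-value under 0.05 (16.5% of all tested genes), or 5 after the scaling (8.2%). Sirpa, the receptor for the CD47 signal, was at 7.94 ± 1.99 and 5.27 ± 0.523 FPKM (SD, n = 3), and Lilrb4a at 2.53 ± 0.819 and 1.44 ± 0.0964 FPKM (SD, n = 3).

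For the other Fc and immunoglobulin binding genes the median was -0.63 over 4 tested of 12 in the table (-0.45 after median-of-ratios scaling). Of these 4, 3 were at an unadjusted p-value under 0.05 (16.5% of all tested genes), or 2 after the scaling (8.2%). Fcgr4 was among the tested genes both here and in the list of receptors that pair with Fcer1g or Tyrobp. Fcgrt, which encodes the neonatal Fc receptor that recycles IgG in endothelium and macrophages, was at 30.31, 33.01 and 23.33 FPKM without Tec and at 19.64, 24.96 and 21.79 FPKM with Tec. Its groups overlapped, with a log2 fold change of -0.36 (SE 0.16). Fcrls, an Fc receptor-like gene of macrophages and microglia, had a log2 fold change of -0.93 (SE 0.27) without overlap. The mast cell receptor chains Fcer1a and Ms4a2, which also pair with the γ chain, reached at most 0.15 and 0.04 FPKM in any library.

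Other pan-leukocyte genes had a median of -0.66 over 13 tested genes, of which 9 were at an unadjusted p-value under 0.05 and 8 did not overlap (16.5% and 18.9% of all tested genes). After median-of-ratios scaling these counts were also 9 and 8, with a median of -0.50 (8.2% and 10.8% of all tested genes). Coro1a, an actin regulator of leukocytes, was at 5.62 ± 2.54 and 2.21 ± 0.356 FPKM (SD, n = 3) and Arhgdib, a regulator of small GTPases in leukocytes, at 15.8 ± 4.75 and 8.43 ± 0.766 FPKM (SD, n = 3). Ligands, sheddases and lipid genes related to Trem2 had a median of -0.37 over 10 tested genes, with 1 at an unadjusted p-value under 0.05 and 0 without overlap, no larger a share than the 16.5% and 18.9% of all tested genes. Clu and Ctsd, the most abundant of these, had log2 fold changes of -0.56 (SE 0.65) and -0.27 (SE 0.19), within the spread between mice. The tested genes of this list ranged from -2.06 for Spp1 (SE 0.98, with overlap) to 0.37 for Lpl (SE 0.18).

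**Figure D4:**
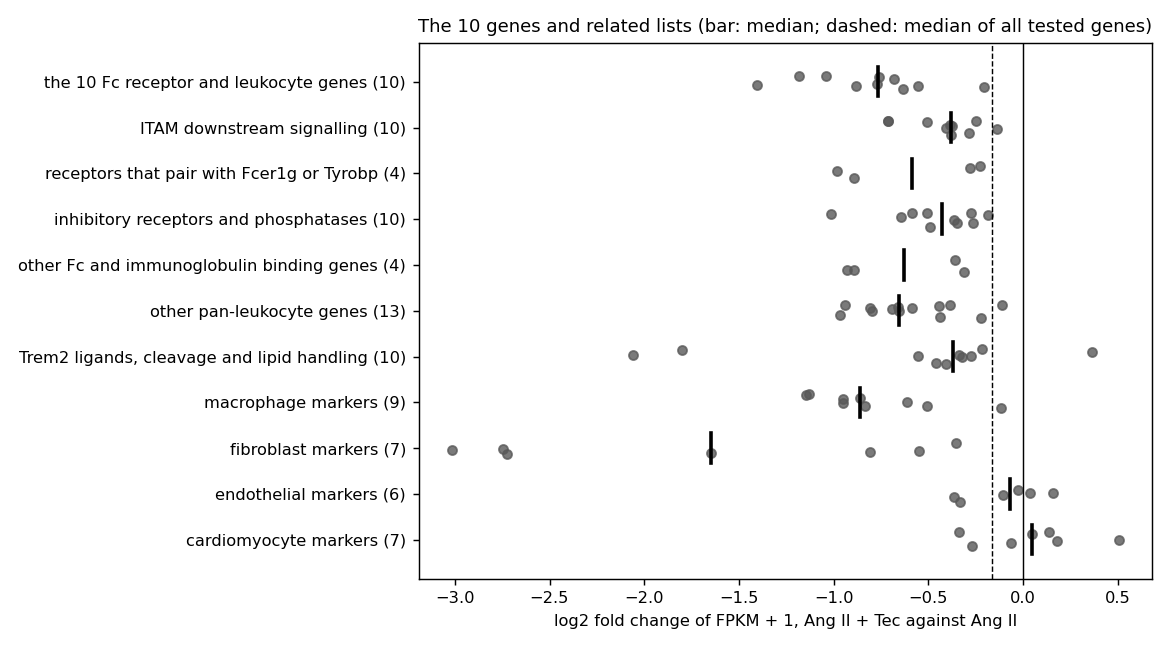
Log2 fold change of FPKM + 1 (horizontal axis) for the 10 genes and for the tested genes of each related list and of 4 marker lists, 1 point a gene, with a bar at the median and a dashed line at the median of all tested genes. The 10 genes had a median of -0.77, the macrophage markers of -0.86 and the fibroblast markers of -1.65 (-1.42 after median-of-ratios scaling). The endothelial and cardiomyocyte markers had medians of -0.068 and 0.045 (0.15 and 0.28 after median-of-ratios scaling, where the endothelial median changes sign).

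Markers of macrophages moved with the 10 genes. Each of 9 such markers had a lower mean with Tec (80% of all tested genes), 8 at an unadjusted limma p-value under 0.05 (16.5% of all tested genes), and their summed level was 283 to 550 FPKM without Tec and 192 to 211 FPKM with Tec. After median-of-ratios scaling 8 of the 9 were lower and 6 were at an unadjusted p-value under 0.05 (8.2% of all tested genes). C1qb, a complement subunit made by macrophages, was at 71.1 ± 19.1 and 31.1 ± 4.36 FPKM (SD, n = 3), and Lyz2, lysozyme of myeloid cells, at 195.9 ± 82.7 and 103.5 ± 5.63 FPKM (SD, n = 3). T cell and NK cell markers were near 0. The summed level of 7 T cell markers was 0.27 to 0.47 and 0.23 to 0.48 FPKM, and that of 5 NK cell markers was 0.22 to 0.5 and 0.23 to 0.45 FPKM. Of the B cell markers, Ighm, the heavy chain of IgM, was at 4.09 ± 0.490 and 2.67 ± 0.421 FPKM (SD, n = 3), while Ms4a1, which encodes CD20, was at no more than 0.05 FPKM in any library. The 5 neutrophil markers summed to 0.33 to 3.24 and 0.34 to 3.06 FPKM, the 6 mast cell markers to 1.62 to 3.24 and 1.19 to 2.27 FPKM, and the 5 dendritic cell markers to 1.22 to 2.26 and 0.92 to 1.22 FPKM. In none of these lists was a gene at 0 in all 6 libraries.

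Markers of fibroblasts, atrial myocardium and red blood cells also varied widely between the libraries, whereas the sum of 6 endothelial markers varied little. Of these 6, 1 was lower with Tec without overlap and at an unadjusted limma p-value under 0.05 (18.9% and 16.5% of all tested genes). The summed level of 7 fibroblast markers was 705, 929 and 163 FPKM without Tec and 136, 221 and 150.2 FPKM with Tec, with Ang II replicate 3 low as in the 10 genes. Of 5 atrial markers it was 6205, 10253 and 256 FPKM against 906, 5056 and 128 FPKM. Most of this sum was Nppa, at 5568, 9456 and 256 FPKM without Tec and 906, 3489 and 125 FPKM with Tec. Myl7 did not follow this order, at 419, 332 and 0 FPKM without Tec and 0, 1040 and 1.58 FPKM with Tec. Red blood cell markers summed to 648, 1018 and 248 FPKM against 526, 376 and 147 FPKM, with overlap. Smooth muscle and pericyte markers summed to 213 to 420 and 169 to 326 FPKM, endothelial markers to 76.9 to 83 and 71.3 to 79.3 FPKM, and platelet markers to 11.1 to 17.4 and 8.07 to 10.3 FPKM. The part of macrophage, fibroblast and atrial content in the values of the 10 genes was not tested.

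Each of the 10 genes followed the mean of the other 9 over the 6 libraries with a Pearson r of 0.942 (Ptprc) to 0.985 (Fcgr2b). The 5 genes most like their mean profile, by Pearson r over the 6 libraries, were Rnf130, Ap1s1, Mzt2, Rer1 and Tmem14a, with r from 0.997 to 0.999. Of the 11040 other genes with a mean of at least 1 FPKM, 2214 (20.1%) had an r above 0.9. Ap1s1, a subunit of a clathrin adaptor, was at 18.3 ± 5.11 and 11.4 ± 0.449 FPKM (SD, n = 3). Tmem14a, a small membrane protein, was at 3.91 ± 1.54 and 1.88 ± 0.0173 FPKM (SD, n = 3).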

How the data were processed

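RNA from the heart tissue of 6 mice was sequenced after poly(A) selection. Reads had been cleaned with Cutadapt and inspected with FastQC, and 1 FPKM per gene and library was deposited by the authors. The submitters' processing notes name Bowtie 0.12.2, HISAT2 2.0, StringTie 1.3.0 and the build mm8, without roles. The coordinates in the table equal those of GENCODE M21 on GRCm38 for 26777 of 30832 shared genes (86.8%), and are given as deposited. Whether the counting used strand is not given in the sources used here. The labels do not say how the hearts were dissected.

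From the FPKM, log2(FPKM + 1) was computed without scaling. This scale understates the fold change of low genes. The 13089 genes with at least 0.5 FPKM in at least 3 libraries were compared between the groups with limma 3.58.1 in R 4.3.3 (eBayes with a trend, no covariate, Benjamini-Hochberg over all tested genes). Exact permutation tests over the 6 libraries were two-sided. The fit was tested on simulated data. The replicates are separate hearts by their labels. Same-numbered libraries did not deviate together in every pair (r = -0.0394, 0.429 and 0.379), so the numbers were not treated as pairs. Tables and figures were made with Python 3.11.15, pandas 2.3.3 and matplotlib 3.10.9.

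The 10 genes and the other lists were chosen with earlier results of these data known. Named beside them are the 2 most abundant tested genes of each list (of the marker lists Mb, C1qb, Lyz2, Ighm, Nppa and Myl7). Any gene of these lists with an adjusted p-value under 0.05 was also to be named, but none had one. The 5 genes most alike in profile were named too. Fcgr4, Fcer1a, Ms4a2, Spi1 and the neighbours on chromosome 1 were also named, with Ms4a1, for their role or position after their values were seen. Spp1 and Lpl were named as the ends of the range of their list. Alternatives changed the pseudocount, filter, scaling, block, variance trend and weights, and left out each library. One B cell marker is not reported here.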

Additional observations from a re-analysis of the deposited data

How the results depend on the processing

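For the 9 tested genes, the log2 fold change was negative in all 90 values from the 10 alternatives that can alter it (pseudocount, both scalings, array weights and leaving out 1 library). The other filters, the block and the variance trend leave it as it is. The median of the 10 genes lay between -1.03 and -0.50 when 1 library was left out, at -1.04 with a pseudocount of 0.1 and at -0.56 after median-of-ratios scaling. The number lower at an unadjusted limma p-value under 0.05 was 8 of 9, against 16.5% of all tested genes. It was 5 after median-of-ratios scaling (8.2% of all tested genes), 5 after quantile normalization (7.85%) and 5 to 9 without 1 library. All 9 were reached without Ang II replicate 3, where 5715 of the 13089 genes were at an unadjusted p-value under 0.05 in either direction, against 969 to 2318 without any other library. Over all genes, 21 were called with an adjusted p-value under 0.05 beside an at least 2-fold difference. This number was 3 of 27760 genes without the filter (3223 at an unadjusted p-value under 0.05), 522 with array weights and 2 to 557 without 1 library, the highest without Ang II replicate 3. The replicate block gave 22 called genes and 9 of the 9 at an unadjusted p-value under 0.05, with adjusted p-values of 0.0928 to 0.168, while the number of all genes at an unadjusted p-value under 0.05 went from 2439 to 3308. With the block, none of the 9 genes came to an adjusted p-value under 0.05. Ang II replicate 1 deviated most alike with Ang II + Tec replicate 2 (r = 0.212), not with its own number. The causes were not tested. Depth in fragments was not given, and no counting error was computed for Ptprc, Trem2 and Fcgr1, which were under 1 FPKM in 4 or more libraries.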
